A study of Bombus terrestris with 33 samples.

Results

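The 100 contigs described here had higher brain RNA levels in bumblebee queens sampled after hibernation than in queens sampled before it, whether or not those queens had succeeded at the step they had just been through. They were chosen from 10672 contigs of a raw read table by a rule that used these same levels. For each library the level was log2(CPM + 1), where CPM is the contig's count scaled to a fixed library total, minus the library's median over contigs that averaged 5 CPM or more. Of 3924 contigs that averaged 1 CPM or more and were not among the 100 most abundant, 171 had the largest gap between neighbouring group means at the place that put both groups after hibernation above both groups before it. The 100 with the highest gap divided by the mean within-group SD were taken. The difference between the stages is therefore how the contigs were found, and it is given below as a description with no test.

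Each library held the brain mRNA of a single queen of Bombus terrestris, the buff-tailed bumblebee. All queens came from purchased colonies, and each had been offered males at the age of 5 days. After hibernation there were 8 SR queens, mated and with fully developed ovaries holding mature eggs, and 8 FR queens, mated and with undeveloped ovaries. Both groups had spent 8 weeks at 5 °C in a climate chamber and a further 1 month with sand and food before they were frozen. Before hibernation there were 8 SM queens, frozen 3 days after mating, and 9 FM queens, which were handled alike but did not mate. Estimated age, read here as days, was 94 to 97 in SR, 91 to 102 in FR, 11 to 20 in SM and 6 to 27 in FM queens. No queen of the older ages was sampled without hibernation, so stage, age, hibernation and the month of nesting conditions cannot be told apart, and the FM queens also differ from the other groups in mating. Colonies C2 and C3 gave queens of all 4 groups, colony C7 only SM and FM queens, and colony C9 only SR and FR queens.

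Total counts were 44365333 to 56845862 in SR, 44074336 to 54995271 in FR, 42858092 to 55807371 in SM and 44596022 to 61560882 in FM libraries. The lowest count of any member in any queen was 3 reads, and 22 members had fewer than 50 reads in at least 1 queen. The files do not pair contigs with gene names, and 0 of the contig identifiers matched the 13398 genes of the reference table. The members are therefore described by their levels alone, and the labelled tissue could not be checked against marker genes. In whole brains a lower level can come from fewer cells of a type or from less RNA per cell, and these cannot be told apart.

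In the life cycle of bumblebees a queen mates as a young gyne, stores sperm and body reserves, spends the cold season in soil in a state of low metabolism, and on emergence feeds, activates her ovaries and founds a nest without workers. The brain directs the foraging, nest search and egg laying that follow, and it takes part in the hormonal control of the ovaries.

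The members differed between the stages by small amounts. The mean of both groups after hibernation exceeded the mean of both groups before it by 0.06 to 1.38 on the log2 scale, with a median of 0.25, which is 1.19-fold. The same median over the 3924 contigs the rule could take was 0.01. More than 2-fold were 2 members, more than 1.5-fold 10 and more than 1.2-fold 42, while 11 members were under 1.1-fold. The gap between the lower group after and the higher group before hibernation was 0.04 to 0.93, and it reached the within-group SD in 36 members. The mean within-group SD of the members had a median of 0.200, against 0.206 over all contigs the rule could take. The members covered a wide range of abundance, from 1.05 to 1226 CPM, but their median of 10.4 CPM was below the 27.1 CPM of the contigs the rule could take.

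Near the limit of the list the values ran on without a break. Contig9971, the last contig taken, had a gap of 0.650 SD, and Contig4139, the next one not taken, had 0.647 SD.

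**Figure D1:**
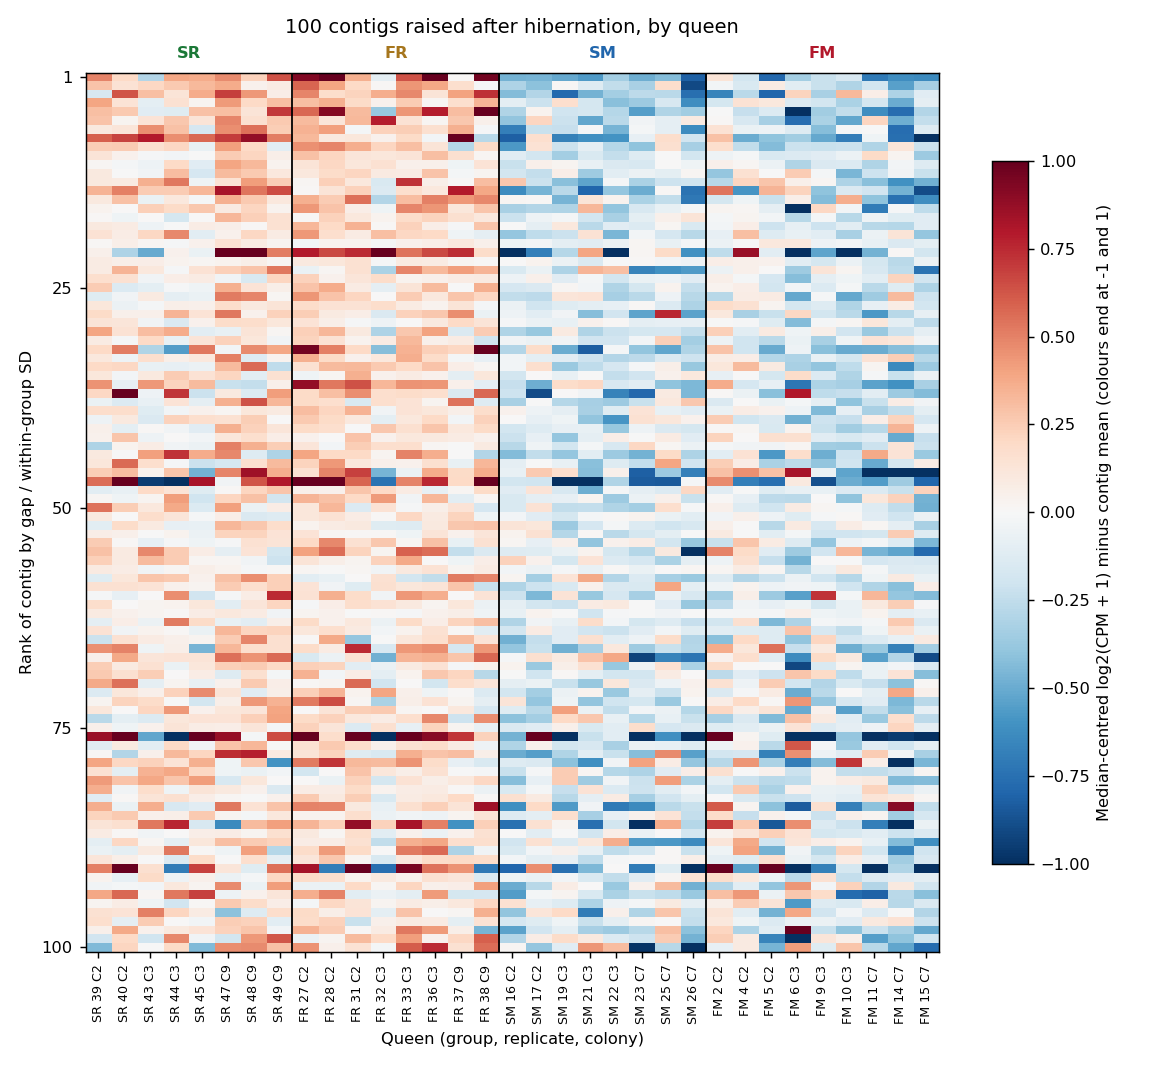
Level of each of the 100 contigs (rows, in order of gap divided by within-group SD) in each of the 33 queens (columns, by group and colony), as median-centred log2(CPM + 1) minus the contig's mean over queens. Colours end at -1 and 1; most rows are pale red in SR and FR queens and pale blue in SM and FM queens, and a few rows vary strongly between queens of 1 group.

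Contig1083 stood at the top of the list, with a gap of 2.28 SD. Its lowest, median and highest levels were 4.36, 7.92 and 9.65 CPM in SR queens and 5.67, 12.2 and 16.6 CPM in FR queens. In SM queens they were 3.20, 4.09 and 4.98 CPM and in FM queens 3.46, 4.32 and 5.96 CPM. Most queens after hibernation lay above all queens before it: on the centred scale 13 of the 16 did, which was the highest number for any member and was shared with Contig4035. The difference between the stages was 0.98 in colony C2 and 0.72 in colony C3 (log2), and 0.97 ± 0.15 (SE) in the edgeR fit with colony as a term.

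Contig621, the next in rank, was far more abundant. Its lowest, median and highest levels were 971, 1025 and 1344 CPM in SR queens and 972, 1281 and 1535 CPM in FR queens. In SM queens they were 535, 855 and 979 CPM and in FM queens 649.6, 848 and 1105 CPM. On the centred scale 14 of the 17 queens before hibernation lay below all queens after it, and the stages differed by 0.44 ± 0.09 (SE) on the log2 scale.

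The largest gaps belonged to contigs with a wide spread. Contig8577 was 2.61-fold higher after hibernation, with a lowest, median and highest level of 1.13, 10.2 and 24.8 CPM in SR, 1.45, 11.5 and 98.0 CPM in FR, 0.884, 3.64 and 20.0 CPM in SM and 0.323, 2.42 and 15.1 CPM in FM queens. Every group spanned more than 10-fold and all 4 overlapped; the within-group SD of 1.2 exceeded the gap of 0.93. Contig4210 was 1.94-fold higher, with 10.5, 17.0 and 47.2 CPM in SR, 21.2, 29.9 and 39.8 CPM in FR, 4.77, 11.8 and 23.7 CPM in SM and 4.63, 12.4 and 34.5 CPM in FM queens. Only its FR queens were close together, and 3 of the 16 queens after hibernation lay above the highest queen before it.

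The most abundant member, Contig2415, showed how small a difference could enter the list where queens varied little. It had 1086, 1257 and 1461 CPM in SR, 1305, 1369 and 1455 CPM in FR, 981, 1158 and 1256 CPM in SM and 1007, 1150.4 and 1460.4 CPM in FM queens, again as lowest, median and highest. The stages differed 1.13-fold, and 1 queen after hibernation exceeded the highest queen before it.

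**Figure D2:**
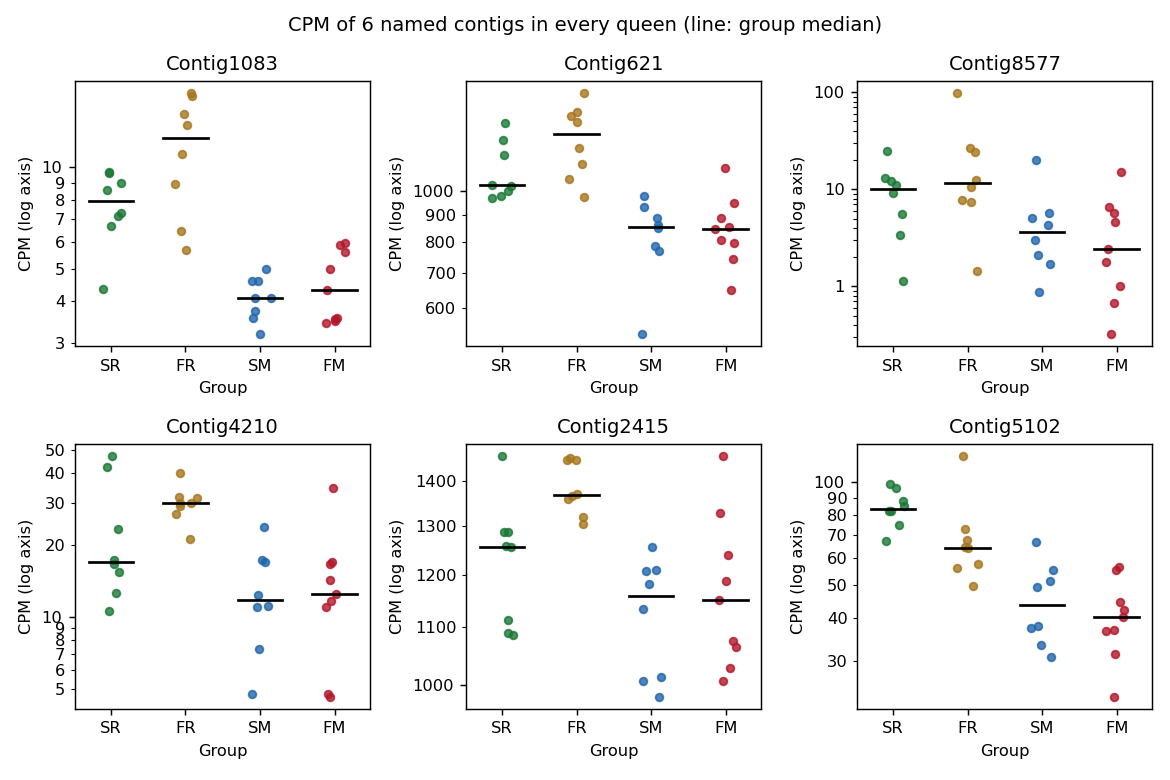
CPM (log axis) of 6 contigs in every queen, in the groups SR, FR, SM and FM from left to right, with a line at each group's median. Contig1083 and Contig621 show SR and FR queens mostly above SM and FM queens, and Contig8577 shows 1 FR queen at 98.0 CPM and a wide spread in all groups.

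No member separated the stages completely. For 0 of the 100 members, and for 0 of the 3924 contigs the rule could take (percent called 0), did every queen after hibernation lie above every queen before it. At least 8 of the 16 queens after hibernation lay above the highest queen before it in 14 members, against 0.714% of the contigs the rule could take. The median member had 3 such queens and 9 members had none. The rule used these same levels, so this is a description. The count of 14 ranged from 11 to 19 when 1 queen was left out, with 19 without FM replicate 14. Leaving out a queen before hibernation could only keep or raise the count. Leaving out a queen after it could only keep or lower the count, so the range does not measure how firm it is.

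Over the whole list, the queens were ordered by stage. The median over the 100 members of a queen's level minus the contig's mean was 0.04, 0.10 and 0.20 (lowest, median and highest queen, log2) in SR and 0.01, 0.15 and 0.19 in FR queens, against -0.22, -0.16 and -0.05 in SM and -0.21, -0.14 and 0.01 in FM queens. The lowest queen after hibernation was FR replicate 32 at 0.015, and the highest before it were FM replicates 2 and 4 at 0.010 and 0.003. Since the members were chosen for the stage difference, this order of queens is built in. The same median over all contigs the rule could take lay between -0.05 and 0.05 in every queen. Together the members held 0.825 to 1.08% of the reads in SR, 0.911 to 1.08% in FR, 0.773 to 0.874% in SM and 0.747 to 0.973% in FM libraries.

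Inside the colonies with queens of both stages the direction was nearly uniform, which the choice of members again favoured. In colony C2, with 5 queens after and 5 before hibernation, 99 members were higher after it, with a median difference of 0.23 (log2), against 53.7% of the contigs the rule could take. In colony C3, with 6 and 6 queens, 97 members were higher, also with a median of 0.23, against 54.3%. In both colonies 96 members were higher.

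To measure the difference in queens that had no part in the choice, the rule was applied without a colony and its contigs were measured there. Without colony C3, 21 queens chose 100 contigs, 60 of them members. In the 12 queens of C3, 88 of these 100 were higher after hibernation, against 54.6% of the contigs the rule could take, and their median difference was 0.15 (log2), against 0.02. Both SR and FR means lay above both SM and FM means for 52 of them, against 15.7%. Without colony C2, 23 queens chose 100 contigs, 58 of them members. In the 10 queens of C2, 90 were higher after hibernation, against 53.6%, with a median difference of 0.15 against 0.02, and 42 had both means above both, against 10.2%. The direction was thus shared by most contigs in the colony left out, at about a 0.15 log2 difference where the choosing queens had shown 0.31 (without C3) and 0.27 (without C2). The contigs are not independent of each other, so no test was made of these shares.

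**Figure D3:**
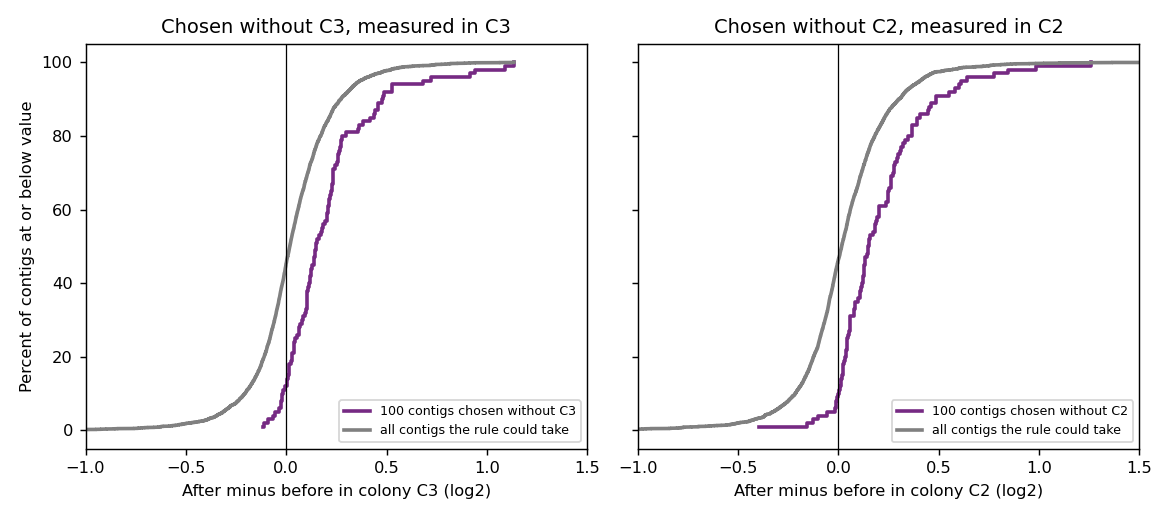
Cumulative share of contigs (percent) by their difference after minus before hibernation (log2) in colony C3 (left) and colony C2 (right), for the 100 contigs chosen without that colony and for all contigs the rule could take. The curve of the chosen contigs lies to the right, with 88 of 100 above 0 in C3 and 90 of 100 in C2.

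With colony as a term in the edgeR quasi-likelihood fit, the stage comparison called 13 members higher after hibernation and 0 lower, where the background over 5606 contigs was 1.05% higher and 0.678% lower. Of the 13, 8 were among the 10 highest in rank. The rule used this contrast, so the count says how the list sits in the fit and nothing more. Set against each earlier group, FR queens had 19 members called higher than in SM (background 9.29% higher and 8.38% lower) and 19 higher than in FM queens (8.4% higher and 8.9% lower), with median log2 fold changes of 0.25 and 0.23. SR queens had 0 members called against SM (percent called 0). At an unadjusted p under 0.05 there were 37 members and 594 (10.6%) of all contigs, and DESeq2 called 8 members and 47 of all contigs. SR queens had 1 member called against FM queens (background 0.0178% higher and 0.0357% lower). With TMM scaling, the median log2 fold changes of SR queens against SM and FM were 0.23 and 0.24, nearly those of FR queens. The rule favoured this, since it kept SR and FR means close. Under total counts with no scaling factors they were 0.14 and 0.14, against 0.35 and 0.33 for FR queens. The medians over all tested contigs were then -0.10 and -0.11 for SR and 0.12 and 0.10 for FR queens. These comparisons share queens and none is independent of the rule.

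For 4 members colony C7, which held only queens before hibernation, was called lower than the mean of C2 and C3. Contig3124, named after its values were seen, had 0.910, 1.2 and 1.92 CPM (lowest, median and highest) in the C7 queens. In colony C2 it had 3.88, 3.94 and 6.31 CPM after hibernation and 3.32, 4.43 and 5.26 CPM before it, and in colony C3 2.02, 3.14 and 4.78 CPM after and 2.16, 3.10 and 5.98 CPM before it. In colony C9, with queens only after hibernation, it had 3.94, 4.95 and 6.35 CPM. The stages overlapped in colonies C2 and C3, and C7 stood low. C7 was lower than the mean of C2 and C3 by a log2 difference of -1.47 ± 0.23 (SE), while the stage difference with the colony term was -0.01 ± 0.18 (SE). Contig9971, the last contig on the list, had 1.24, 2.22 and 3.54 CPM in SR, 2.02, 3.06 and 4.49 CPM in FR, 0.549, 1.55 and 3.38 CPM in SM and 0.747, 1.65 and 3.04 CPM in FM queens, so all its groups overlapped. It was also lower in C7 (log2 difference -1.10 ± 0.24 SE), with a stage difference of 0.12 ± 0.19 (SE). In all, C7 was called lower in 4 members and higher in 0, where the background was 0.232% in each direction. DESeq2 called 7 members lower, and 104 of all tested contigs in either direction. The queens of C7 and C9 entered the group means that the rule used, so these counts are not independent of the rule. Whether either colony placed these contigs on the list was not tested. With the colony term the 4 contigs had stage differences of -0.01 to 0.12, against 0.25 to 0.46 between plain group means.

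Colony C9, with queens only after hibernation, was called apart from C2 and C3 for 0 members (edgeR; background 0.321% higher and 0.535% lower). At an unadjusted p under 0.05 there were 12 higher and 4 lower members, against 729 (13.0%) of all tested contigs. DESeq2 called 3 members higher and 1 lower, and 123 of all tested contigs in either direction.

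Between the colonies that held all 4 groups, edgeR called 0 members higher and 3 lower in C3 than in C2, where the background was 1.03% higher and 1.16% lower. The rule favoured a low SD within groups, and each group held queens of both colonies, which limits this difference. Positive differences were seen for 35 of the 100 members, against 51.5% of all tested contigs, with a median of -0.04 against 0.01 (log2). The number of members was 21 under total counts, with a median of -0.10 against -0.05 over all tested contigs. It was 42 with FM replicates 2 and 4 left out together, with a median of -0.01 against 0.01. Contig8577 was lower in C3 by a log2 difference of -1.81 ± 0.48 (SE, edgeR adjusted p = 0.0390). Contig8370 was lower by -0.33 ± 0.08 (SE, edgeR adjusted p = 0.0308). Contig8370 had 12.8, 15.8 and 21.0 CPM in SR, 12.9, 16.6 and 24.8 CPM in FR, 11.5, 14.4 and 17.3 CPM in SM and 10.8, 14.0 and 19.7 CPM in FM queens, so its groups overlapped widely. Neither call held throughout. That of Contig8577 was lost without any 1 of FM replicates 2, 6 and 9, SM replicates 17, 19 and 21, FR replicates 27, 31 and 36 and SR replicates 40, 43 and 44 (log2 difference -1.87 to -1.48, edgeR adjusted p 0.0501 to 0.132). It was also lost under total counts (adjusted p = 0.0552), with low contigs kept in (0.0636), in colonies C2 and C3 alone (0.109) and with FM replicates 2 and 4 left out together (0.130, all by edgeR), at log2 differences of -1.81 to -1.63. That of Contig8370 was lost without any 1 of FM replicates 2, 5 and 9, SM replicate 21, FR replicates 31 and 36 and SR replicates 39, 40 and 45 (log2 difference -0.33 to -0.29, edgeR adjusted p 0.0502 to 0.0736), and in colonies C2 and C3 alone (-0.33, edgeR adjusted p = 0.0586). Contig634 had the lowest p among positive differences, with 0.51 ± 0.15 (SE, edgeR adjusted p = 0.0814), which did not pass; it was called by DESeq2 (adjusted p = 0.0363) and by edgeR without FR replicate 37 (adjusted p = 0.0339).

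The comparison of SR with FR queens asks how brains differ with ovary development. It gave the most calls over all contigs of the comparisons made here, but few among the members. EdgeR called 1 member higher and 0 lower in SR queens, where the background was 14.3% higher and 15.2% lower. The median absolute log2 fold change was 0.07 over the members and 0.26 over all tested contigs. The rule kept only contigs whose SR and FR means were closer to each other than the gap between the stages, so a low share was built in. On the centred scale 39 members had the higher mean in SR and 61 in FR queens. The direction depended on the scaling: 56 members had a positive fold change with TMM and 5 under total counts. The median over all tested contigs moved to -0.22 under total counts, against -0.04 with TMM. Under total counts 12 members were called lower. The share of all tested contigs called in that fit is not given here, so the 12 cannot be judged against it.

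Contig5102 was the member called. It had 67.3, 83.8 and 98.8 CPM in SR queens and 49.6, 64.4 and 119.6 CPM in FR queens, against 30.9, 43.8 and 66.7 CPM in SM and 23.6, 40.3 and 56.6 CPM in FM queens. Every SR queen lay above the FR median, and the top FR value was that of replicate 37. SR queens averaged 84.4 ± 10.4 CPM and FR queens 69.0 ± 21.7 CPM (SD, n = 8 each), with SR higher by 0.47 ± 0.18 on the log2 scale (SE; adjusted p = 0.0487 by edgeR). The call was lost without any 1 of 21 libraries (log2 fold change 0.38 to 0.49, edgeR adjusted p 0.0511 to 0.114). These were FM replicates 5, 9 and 10, SM replicates 19, 21, 22, 23 and 26, FR replicates 27, 28, 31, 32, 33, 36 and 38 and SR replicates 39, 40, 43, 44, 45 and 48. It was also lost under total counts (0.29, edgeR adjusted p = 0.173) and when low contigs were kept in (adjusted p = 0.0705 by edgeR). Without FR replicate 37 the fold change was 0.70 (edgeR adjusted p = 0.00265). The corresponding difference before hibernation, SM minus FM, was 0.14 ± 0.18 (SE, edgeR adjusted p = 0.850), and the difference between both differences did not pass (0.33 ± 0.25 SE, edgeR adjusted p = 0.382). Against FM queens, Contig5102 was also the 1 member called higher in SR queens.

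Contig1083, the top of the list, had the lowest p among members lower in SR queens. It averaged 7.79 ± 1.78 CPM in SR and 11.6 ± 4.25 CPM in FR queens (SD, n = 8 each), and the difference of -0.38 ± 0.18 (log2, SE) did not pass (edgeR adjusted p = 0.106). It passed under total counts with no scaling factors (-0.58, edgeR adjusted p = 0.0230) and without FR replicate 32 (-0.46, edgeR adjusted p = 0.0351) or FR replicate 37 (-0.50, edgeR adjusted p = 0.0241).

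**Figure D4:**
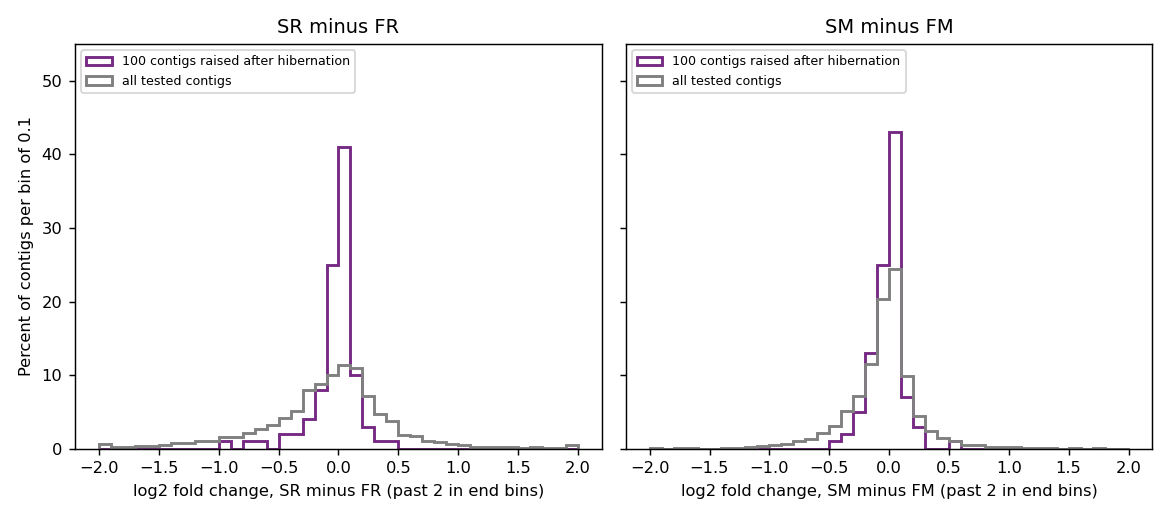
Share of contigs (percent) per 0.1 of log2 fold change, for SR minus FR (left) and SM minus FM (right), over the 100 contigs raised after hibernation and over all 5606 tested contigs. The members are concentrated near 0, with a median absolute value of 0.07 against 0.26 for SR minus FR and 0.06 against 0.12 for SM minus FM.

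The comparison of SM with FM queens was limited by the rule in the same way as that of SR with FR queens: members had SM and FM means closer to each other than the gap between the stages, so few calls and small fold changes were built in. With edgeR 0 members passed between SM and FM queens (percent called 0). At an unadjusted p under 0.05 there was 1 member, against 564 (10.1%) of all tested contigs. DESeq2 called 0 members and 1 of all tested contigs. The member with the lowest p, Contig6229, had 399, 457 and 505 CPM in SM and 369, 422 and 515 CPM in FM queens (lowest, median and highest), which differed by 0.07 ± 0.03 (log2, SE; adjusted p = 0.495 by edgeR). Contig260 had the lowest p among those lower in SM queens, with 1.09, 1.52 and 2.11 CPM in SM and 0.796, 2.15 and 3.70 CPM in FM queens (-0.42 ± 0.21 SE, edgeR adjusted p = 0.523). Its FM queens enclosed the whole SM range. On the centred scale 60 members had the lower mean in SM and 40 in FM queens.

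The outcome differences at the 2 stages were also set against each other, as (SR minus FR) minus (SM minus FM). The rule bounded both differences by the gap between the stages, so a low share of calls was built in here too. With edgeR 0 members were called, where the background was 3.37% positive and 3.89% negative. At an unadjusted p under 0.05 there were 3 members, against 1711 (30.5%) of all tested contigs. DESeq2 called 0 members and 812 of all tested contigs. Contig260 had the lowest p among positive values (0.70 ± 0.30 SE, edgeR adjusted p = 0.119). Its SR queens had 2.64, 3.52 and 5.52 CPM and its FR queens 2.11, 3.14 and 5.17 CPM, so the outcomes overlapped after hibernation too. Contig4035 had the lowest p among negative values (-0.44 ± 0.19 SE, edgeR adjusted p = 0.124), with 93.9, 135 and 179 CPM in SR, 87.9, 176 and 259 CPM in FR, 78.2, 96.6 and 127 CPM in SM and 53.5, 91.0 and 113 CPM in FM queens. Neither passed. Contig260 was called in colonies C2 and C3 alone (1.13, adjusted p = 0.0306 by edgeR) and in the fits without FM replicate 15 or SM replicate 25 (0.83 and 0.85, edgeR adjusted p = 0.0466 and 0.0434), and Contig4035 under total counts (-0.64, edgeR adjusted p = 0.0467) and without FR replicate 32 (-0.52, edgeR adjusted p = 0.0445).

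Age varied among the queens before hibernation, and the rule did not use it directly. The SD within groups, by which the rule divided, includes any spread that goes with age. The median levels of the members in the 4 queens of ages 6 to 12 were -0.208 in FM replicate 14, -0.204 in FM replicate 15, -0.148 in SM replicate 21 and -0.223 in SM replicate 26, by increasing age. All but SM replicate 21 were of colony C7. In the 8 queens of ages 13 to 19 the levels lay between -0.170 and -0.082, which overlaps with SM replicate 21. SM replicate 25, of colony C7 and age 20, had -0.052. The highest levels before hibernation, 0.010 and 0.003, were in FM replicates 2 and 4 of colony C2 at ages 22 and 21. The oldest queens were lower, with -0.136 in FM replicate 11 at age 24 and -0.079 in FM replicate 6 at age 27. Ages ran from 16 to 22 in colony C2, from 11 to 27 in C3 and from 6 to 24 in C7, so the lowest ages fell in C7.

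With group and colony as terms, the slope on age over the 17 queens was not called for any member by edgeR (background 0.178% positive and 0.0357% negative). At an unadjusted p under 0.05 there were 9 positive and 4 negative slopes among the members, against 659 (11.8%) of all tested contigs. DESeq2 called 1 member and 99 of all tested contigs. Positive slopes were seen for 57 of the 100 members and 50.4% of all tested contigs. With 1 library left out the number was 52 (without SM replicate 25) to 70 (without FM replicate 6). Under the other settings it was 54 to 59. The share over all tested contigs was not taken in those fits. The members' median slope was 0.04 per 10 days (log2), with a median SE of 0.13. Contig3249 had the lowest p among positive slopes (0.66 ± 0.17 SE per 10 days, edgeR adjusted p = 0.147; DESeq2 adjusted p = 0.0343), but the slope was 0.29 without FM replicate 6, the oldest queen, which had 22.1 CPM against 8.72 CPM in the next FM queen. Contig2293 had the lowest p among negative slopes (-0.44 ± 0.14 SE per 10 days, edgeR adjusted p = 0.216).

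**Figure D5:**
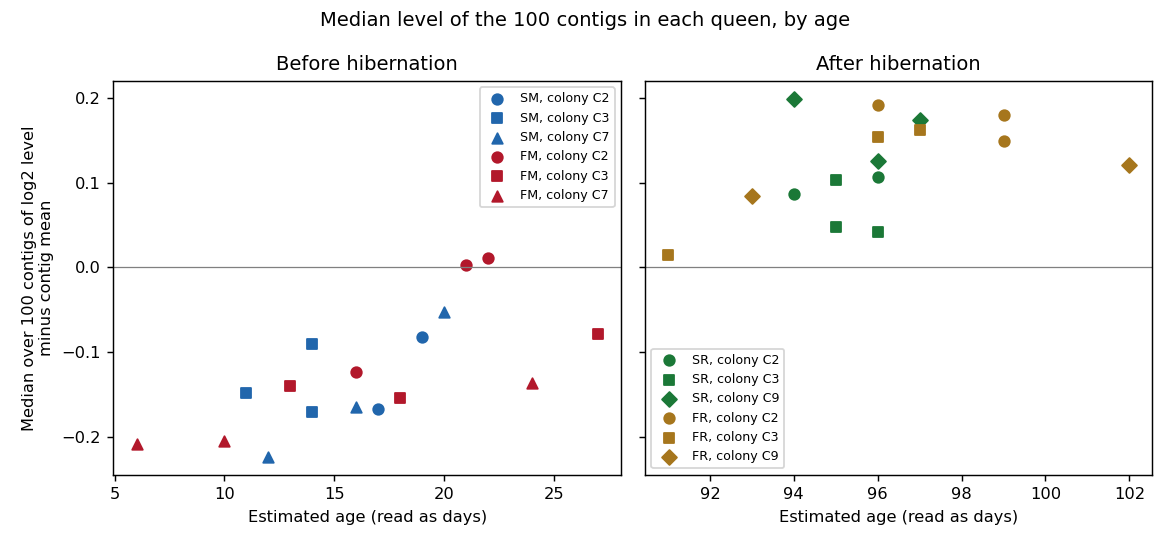
Median over the 100 contigs of the log2 level minus the contig's mean (y axis) against estimated age in days (x axis) for the 17 queens before hibernation (left) and the 16 after it (right), with colours for groups and symbols for colonies. The queens of ages 6, 10 and 12, of colony C7, lie at or below -0.204, and FM replicates 2 and 4 lie just below the lowest queen after hibernation, which is at 0.015.

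Among the queens of a group, most pairs of members were weakly correlated. Over the 4950 pairs of members, the correlation of levels after each group's mean was taken out had a median of 0.0777, against 0.0104 over all pairs of contigs the rule could take, while 3.27% of member pairs exceeded 0.5, against 5.32% of all pairs. Some members had adjacent contig numbers. Of 132 such neighbours of members that the rule could take, 16 (12.1%) were members, where members are 2.55% of all contigs the rule could take. They form 8 pairs, with a correlation of -0.15 to 0.62 and a median of 0.353, against 0.182 over all 2439 adjacent pairs. The highest was between Contig2915 and Contig2916, named after their values were seen. The files do not say what the numbers stand for, so adjacent contigs may or may not share a transcript or a place in the genome. These correlations are over the 33 queens, whose libraries all contigs share, and are given without a test.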

How the data were processed

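Per the labels' protocols, TruSeq libraries of poly(A) RNA from single brains were read on an Illumina HiSeq. FastQC, TopHat, SAMtools and edgeR are named, without versions, in the submitters' processing notes; the build, annotation and counter were not given in the sources used here. Raw read counts, whole numbers with 1 column per queen, were deposited by the authors for 10672 contigs, 1799 of them without a read. Groups and colonies come from the labels, which describe separate queens.

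Contigs were filtered with filterByExpr (minimum count 10), leaving 5606 with 99.99% of reads and all 100 members. TMM-scaled counts of all 33 libraries were fitted with group and colony terms (edgeR 4.0.16 quasi-likelihood test, robust, R 4.3.3; Benjamini-Hochberg over all tested contigs, calls at an adjusted p of 0.05). Age slopes were refitted on the 17 queens before hibernation. Each SE is |log2 fold change| / sqrt(F). The fit and the choosing rule were tested on simulated data. The planted stage changes were larger than those of most members, so differences as small as theirs were not covered. DESeq2 1.42.0, other scalings, filters and colony choices, and each library left out were tried. Contigs were named by rank, gap, abundance, and, per comparison, at most 2 called per direction with the largest fold change or else the lowest p. Members, lists and tests were chosen with earlier results of these data known.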

Additional observations from a re-analysis of the deposited data

Results flagged for a closer look

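A queen far from the rest of its group was sought in 64 sets of values. Each set was a named contig, the median level of the members or their share of reads, in 1 group. Such a queen was found in 8 sets, all of named contigs. The limit used gives about 5% of sets by chance only for normally distributed values. The named contigs were examined in CPM and not on the log2 scale, and some had been named for large gaps. The number of sets found therefore cannot be judged against that 5%. Contig8577 had 3 of them: FR replicate 31 at 98.0 CPM with the next queen at 26.6 CPM, SM replicate 17 at 20.0 CPM with the next at 5.66 CPM, and FM replicate 2 at 15.1 CPM with the next at 6.51 CPM. All 3 queens were of colony C2. FR replicate 31 was also highest for Contig8370, at 24.8 CPM against 18.1 CPM for the next. Contig5102 had 119.6 CPM in FR replicate 37, against 72.9 CPM in the next FR queen. Contig4210 had 34.5 CPM in FM replicate 4, against 16.9 CPM. Contig3249 had 22.1 CPM in FM replicate 6, against 8.72 CPM. Contig621 had 535 CPM in SM replicate 26, where the next lowest SM queen had 770.4 CPM. Whether these values come from the queens or from their libraries was not tested.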

How the results depend on the processing

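No paired analysis was possible because replicate numbers are not shared between groups. The list itself depended on the scaling and the queens: of the 100 members, 42 were taken again with no median centring, 46 in colonies C2 and C3 alone, 68 to 98 under the other settings, and 81 to 95 with 1 library left out. Members called higher after hibernation numbered 13, and 23 with DESeq2, 41 without the colony term, 19 with FM replicates 2 and 4 left out together, 9 to 14 under the other settings and 11 to 18 with 1 library left out. For SR against FR the 1 call became 2 with DESeq2, with DESeq2 size factors or without the colony term, 3 in colonies C2 and C3 alone, 0 with no filter on low counts and 12, all lower in SR queens, under total counts. With 1 library left out it was 0 to 4, 3 without FR replicate 32 and 4 without FR replicate 37. It was 0 without any library on which the call of Contig5102 rested, other than SM replicates 19 and 21, FR replicate 32 and SR replicate 45, and 2 without FM replicate 4, 6, 11 or 14 or SR replicate 49. For the difference between both outcome differences, 2 members were called under total counts and 2 in colonies C2 and C3 alone, and 0 to 1 with 1 library left out (FM replicate 15, SM replicate 25 or FR replicate 32). C3 against C2 gave 5 with DESeq2 and 1 to 4 with 1 library left out (1 without FM replicate 2 or 9, SM replicate 21, FR replicate 31 or 36 or SR replicate 40; 4 without FR replicate 37), and age gave 1 with DESeq2 and 0 with any 1 library left out. SM against FM gave 0 throughout. Over all tested contigs DESeq2 called 262 between the stages, 1930 for SR against FR, 207 for C3 against C2 and 99 for age. For the other alternative fits the numbers called over all tested contigs are not given. Whether the members moved more than all contigs did cannot be seen from their counts. Contigs chosen without a colony were higher after hibernation there in 82 to 88 (C3) and 83 to 95 (C2) of 100. The causes of these shifts were not tested. Contig3124 had a stage difference of 0.51 (log2) without the colony term and of -0.08 to 0.13 in the fits with it; no other named contig turned its direction in the comparisons and settings in which it was followed. The median over all tested contigs of the difference between both outcome differences moved to -0.20 under total counts, against 0.00 with TMM. With colony as a term the stages are linked by 22 queens of C2 and C3, and low counts limit the 22 members with under 50 reads in some queen. Leaving out FM replicates 2 and 4 together, the counts of positive age slopes and of members with 8 or more queens above, and the counts in both colonies were added after the data were seen.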
